A study of Mus musculus with 47 samples.

Results

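The forkhead (Fox) transcription factors were followed through a set of mouse cranial neural crest transcriptomes. Members were the protein-coding genes whose symbol is Fox, a letter from a to s and a digit, which gave 41 of the 38215 genes of the table, on 16 chromosomes. Names alone decided membership, and not every gene of the family is analysed here. Forkhead factors share a winged-helix DNA-binding domain and are sorted into lettered classes by sequence. Foxf genes and some Foxd and Foxc genes are known hedgehog-responsive genes of facial mesenchyme, and loss of Foxf2 in mouse leaves a cleft palate. Foxo factors are kept out of the nucleus by insulin and growth factor signalling, Foxm1 drives genes of mitosis, and Foxa factors open chromatin in endoderm.

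RNA came from cranial neural crest cells that were dissected from embryos and sorted by fluorescence. Of the mutants, Ezh2cKO is a conditional knockout of Ezh2, profiled at E10.5 in 4 subpopulations, which are the frontonasal process (FNP), the first pharyngeal arch in its maxillary (Mx) and its mandibular (Md) part, and the second arch (PA2), with 3 libraries each. HoxA2OE overexpresses Hoxa2 and was profiled in Md at E10.5. Hoxa2TempMut is a temporal knockout of Hoxa2, profiled in PA2 at E11.5 beside a group named Control, again with 3 libraries per group. Wild type (WT) covered progenitors at E8.5 and the 4 subpopulations at E10.5 and E11.5, with 3 libraries per group but 2 for Mx at E10.5. The Cre or driver lines, the agent and time of the Hoxa2 deletion, the genotype behind the name Control, the marker used for sorting and the number of embryos per library are given nowhere in the labels. Replicates are numbered but not described, and p-values therefore cover the spread among these libraries alone, which may be technical.

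Library totals, in units of 1e+06 counts, were 18.8 to 49.8, with a median of 30.6. The 3 HoxA2OE libraries stood apart in their TMM factors (0.514 to 0.775), HoxA2OE replicate 1 had 45.9% mitochondrial counts, against 28.5 and 28.5% in the other 2, and E8.5 replicate 1 had 18.7%, against at most 11.8% in the other 2, and results are given without these replicates beside the comparisons they enter. In WT the mitochondrial share was 28.2 to 33.6% in FNP and 19.9 to 24.0% in the rest at E10.5, and 11.7 to 19.6% at E11.5, so it moved with region and stage. Its part in the results was not tested. Levels are counts per 1e+06 of the TMM-scaled library total (CPM), which compare samples for 1 gene. Levels of different genes are compared per kilobase (RPKM). Changes, written as log2, are log2 fold changes ± SE from edgeR's quasi-likelihood test, called at a Benjamini-Hochberg adjusted p under 0.05 over all 20560 genes tested. Summed over 8 markers of crest mesenchyme, such as Twist1 and Prrx1, levels were 1375 to 2070 CPM in WT at E10.5 and 264 to 376 CPM at E8.5, with no marker at 0. In the targeted genes, Ezh2 averaged 133, 144, 132 and 139 CPM in Ezh2cKO FNP, Mx, Md and PA2, against 371, 362, 354 and 365 CPM in WT, and was called lower in each. Hoxa2 had 92.8, 112 and 124 CPM in HoxA2OE Md, against 0.297, 0.248 and 0.265 CPM in WT Md. In PA2 at E11.5, Hoxa2 had 195, 185 and 176 CPM in the libraries labelled Hoxa2TempMut and 268, 268 and 269.5 CPM in Control, a difference that was not called (log2 -0.54 ± 0.21, adjusted p = 0.503).

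Of the 41 members, 33 passed the filter on low counts and were tested. Reaching 5 CPM in at least 1 of the 16 groups were 25 members, and 12 of these did so in all 16. These 12 are Foxj2, Foxj3, Foxk1, Foxk2, Foxm1, Foxn2, Foxn3, Foxo1, Foxo3, Foxp1, Foxp2 and Foxp4, of which all but Foxj2 and Foxp2 were at 20 CPM or more in every group. Foxa2, Foxe3, Foxh1, Foxi3, Foxj1, Foxo6, Foxq1 and Foxr2 passed the filter without reaching 5 CPM in any group. Foxa3, Foxb2, Foxe1, Foxn1, Foxn4, Foxr1 and Foxs1 did not pass it, with group means of at most 0.187 CPM, and Foxi1 had no count in any library, which over the 3 libraries of E8.5 allows a level of up to 0.0222 CPM.

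Per kilobase, Foxm1 was the most abundant member in WT FNP, Md and PA2 at E10.5, with 28.3, 27.9 and 31.0 RPKM. Foxk2 and Foxp4 followed it in these groups, at 19.9 and 22.3 RPKM in Md. Foxf1 was at a lower level in FNP and Md, at 6.10 and 10.6 RPKM. The map of levels over the 9 WT groups sets the broadly present classes against the members that vary with place or stage.

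**Figure D1:**
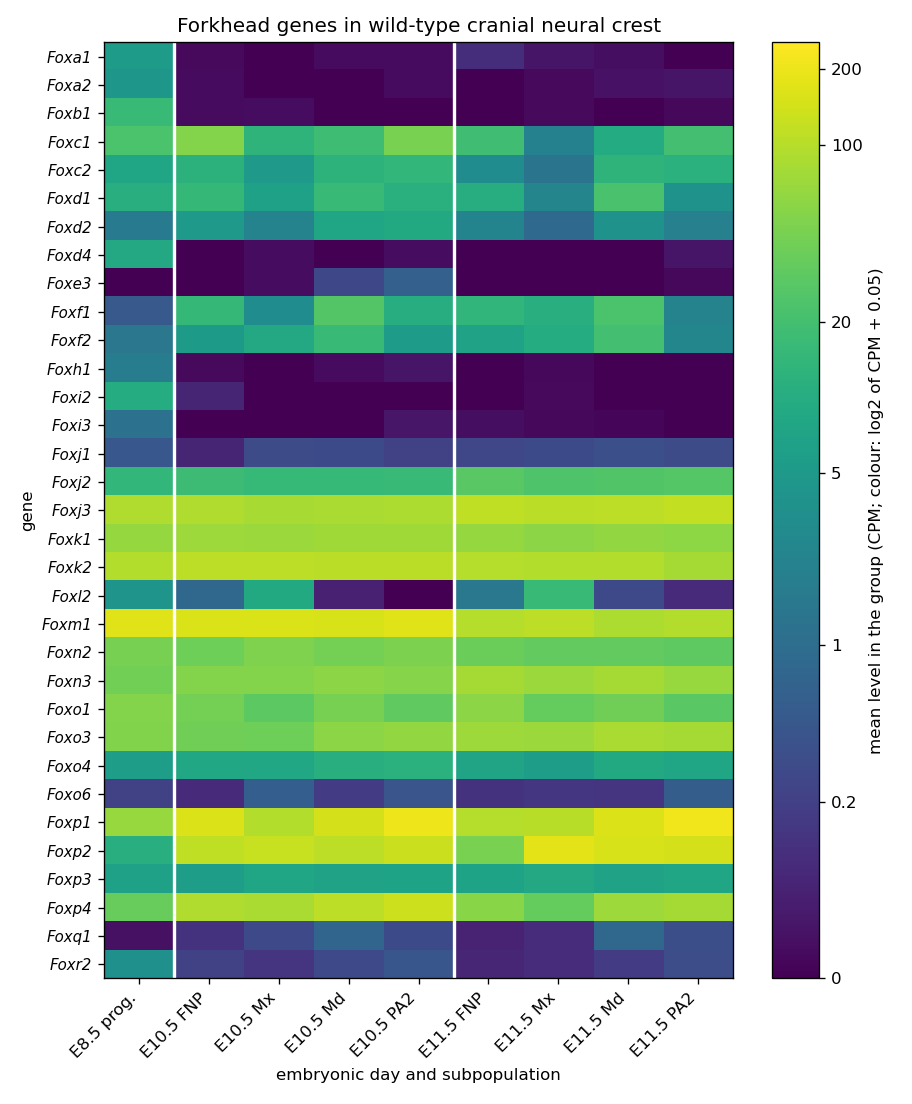
Mean level (CPM, colour on a log2 scale after adding 0.05 CPM) of the 33 tested forkhead genes in the 9 wild-type groups, E8.5 at the left and E11.5 at the right. Foxm1, Foxk2, Foxj3 and Foxp1 are high throughout, Foxb1, Foxd4, Foxi2, Foxa1 and Foxa2 are high at E8.5 alone, and Foxl2 is high in Mx.

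Foxf1 and Foxf2, mesenchymal regulators of the gut, lung and palate, were highest in Md at both stages. At E10.5, Foxf1 had 28.1, 27.1 and 21.6 CPM in Md, against 13.01, 16.3 and 14.9 CPM in FNP, 3.56 and 2.61 CPM in Mx and 8.37, 11.6 and 10.2 CPM in PA2. All 3 Md libraries lay above the other 8, and both Mx libraries lay below the other 9. Against the mean log2 level of the other 3 subpopulations, Foxf1 was higher in Md (log2 1.73 ± 0.15, adjusted p = 3.14e-12) and in FNP (log2 0.67 ± 0.15, adjusted p = 0.000725). It was lower in Mx (log2 -2.33 ± 0.21, adjusted p = 2.95e-11) and not called in PA2 (log2 -0.07 ± 0.16, adjusted p = 0.889). Mean CPM in FNP was 14.7, against 14.15 in the other libraries, and the low Mx level enters the log2 reference of FNP. At E11.5 it had 24.5, 21.2 and 21.4 CPM in Md, against 13.3, 14.7 and 13.5 CPM in FNP, 11.1, 12.9 and 7.67 CPM in Mx and 2.05, 2.79 and 1.93 CPM in PA2. The lowest group had thus become PA2, with all of its libraries below the other 9, and it was called lower there (log2 -2.71 ± 0.19, adjusted p = 2.58e-15) and higher in Md (log2 1.69 ± 0.14, adjusted p = 1.32e-12) and FNP (log2 0.77 ± 0.15, adjusted p = 7.04e-05). In FNP at E11.5 mean CPM was 13.8, against 11.7 in the other libraries, and the low PA2 level enters that log2 reference. In Mx at E11.5 the difference was not called (log2 0.25 ± 0.15, adjusted p = 0.353). Ordered by mean, Foxf1 ran from Md at E10.5 and at E11.5 through FNP at E10.5 and at E11.5, Mx at E11.5, PA2 at E10.5, Mx at E10.5 and PA2 at E11.5 to E8.5 at 0.497 ± 0.328 CPM (SD, n = 3). Libraries overlapped between neighbours of this order except between Md and FNP, between FNP and Mx at E11.5, between PA2 and Mx at E10.5, and between PA2 at E11.5 and E8.5.

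Foxf2 had 16.6, 14.6 and 15.4 CPM in Md at E10.5, against 4.86, 5.60 and 5.37 CPM in FNP, 9.17 and 7.80 CPM in Mx and 5.66, 5.83 and 4.77 CPM in PA2. Md stood above all other libraries, and unlike Foxf1 the next highest group was Mx. It was called higher in Md (log2 1.31 ± 0.17, adjusted p = 2.45e-07) and lower in FNP (log2 -0.76 ± 0.19, adjusted p = 0.00224) and PA2 (log2 -0.71 ± 0.19, adjusted p = 0.0112). At E11.5, Foxf2 averaged 19.96 ± 2.51 CPM in Md and 6.40 ± 3.43 CPM elsewhere (SD, n = 3 and 9; log2 1.85 ± 0.16, adjusted p = 4.52e-12). In PA2 it averaged 2.47 ± 0.769 CPM, below every library of the other 3 subpopulations (log2 -2.16 ± 0.21, adjusted p = 4.27e-11). Over the 9 WT groups, the mean log2 levels of Foxf1 and Foxf2 had a Pearson r of 0.837, a description over 9 points that share stages and libraries.

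Foxd1, which in mouse is needed in kidney stroma and retina, and its paralog Foxd2 were higher in Md and lower in Mx. At E10.5, Foxd1 had 17.3, 14.03 and 17.5 CPM in Md, against 15.5, 15.5 and 13.4 CPM in FNP, 5.98 and 7.30 CPM in Mx and 9.55, 11.4 and 12.7 CPM in PA2. Md and FNP overlapped, and Mx lay below all others. It was called higher in Md (log2 0.66 ± 0.16, adjusted p = 0.00347) and FNP (log2 0.48 ± 0.15, adjusted p = 0.0183), lower in Mx (log2 -1.07 ± 0.20, adjusted p = 0.000103) and not called in PA2 (log2 -0.06 ± 0.16, adjusted p = 0.904). A day later the levels had spread apart, with 24.4, 20.9 and 21.4 CPM in Md, against 10.54, 9.19 and 10.7 CPM in FNP, 2.54, 1.18 and 3.36 CPM in Mx and 4.41, 4.30 and 3.34 CPM in PA2. Md then overlapped with no other group, while Mx and PA2 just overlapped at the low end. Foxd1 was higher in Md (log2 2.28 ± 0.14, adjusted p = 4.49e-16) and FNP (log2 0.77 ± 0.15, adjusted p = 0.000151) and lower in Mx (log2 -2.05 ± 0.19, adjusted p = 3.08e-11) and PA2 (log2 -1.01 ± 0.18, adjusted p = 2.14e-05). Mean CPM in FNP was 10.1, against 9.54 in the other libraries, and the low Mx and PA2 levels enter the log2 reference of FNP. The E8.5 libraries, at 11.7, 10.3 and 9.78 CPM, stood in the middle of this order, overlapping with PA2 at E10.5 and FNP at E11.5. The call of Foxd1 in FNP at E10.5 was lost without FNP replicate 1 (adjusted p = 0.0753), FNP replicate 2 (0.0802) or Mx replicate 1 (0.0795).

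Foxd2 had 2.34 and 2.08 CPM in Mx at E10.5, against 4.33 to 9.34 (median 7.63) CPM in the other 9 libraries, and was called lower (log2 -1.68 ± 0.25, adjusted p = 2.00e-06). It was higher in PA2 at 8.46, 9.27 and 9.34 CPM (log2 1.02 ± 0.18, adjusted p = 5.60e-05), where all 3 libraries exceeded the other 8, and in Md (log2 0.74 ± 0.19, adjusted p = 0.00669). At E11.5 the highest group was Md, at 3.95 ± 0.344 CPM against 1.73 ± 0.755 CPM elsewhere (SD, n = 3 and 9; log2 1.32 ± 0.19, adjusted p = 1.50e-06). Mx was again lowest, at 0.848, 0.207 and 1.58 CPM (log2 -1.62 ± 0.24, adjusted p = 2.39e-06).

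Foxc1 and Foxc2, needed in mouse for skull, eye and vessel development, were lowest in Mx. Foxc1 had 12.2 and 13.9 CPM in Mx at E10.5, against 70.0, 46.9 and 42.8 CPM in FNP, 18.1, 18.03 and 18.4 CPM in Md and 44.8, 46.0 and 46.0 CPM in PA2. The FNP and PA2 libraries overlapped and lay above Md, and Md lay above Mx. Calls were higher in FNP (log2 1.27 ± 0.16, adjusted p = 3.07e-08) and PA2 (log2 0.97 ± 0.16, adjusted p = 1.62e-05), and lower in Md (log2 -0.80 ± 0.18, adjusted p = 0.00171) and Mx (log2 -1.44 ± 0.21, adjusted p = 2.71e-06). At E11.5, Mx had 2.54, 0.887 and 2.80 CPM, against 8.09 to 20.6 (median 19.2) CPM in the other 9 libraries (log2 -2.88 ± 0.22, adjusted p = 1.47e-13). FNP (log2 1.37 ± 0.16, adjusted p = 7.84e-09) and PA2 (log2 1.47 ± 0.16, adjusted p = 1.69e-09) were higher, with overlapping levels of 17.1 to 19.7 and 19.2 to 20.6 CPM. Foxc2 shared the low level in Mx, with 5.50 and 4.28 CPM at E10.5 against 10.1 to 14.7 (median 13.2) CPM elsewhere (log2 -1.39 ± 0.22, adjusted p = 1.20e-05). In PA2 at E10.5, Foxc2 was higher by 0.63 ± 0.17 (log2; adjusted p = 0.0108). At E11.5 it parted from Foxc1, being lower in FNP (3.22, 3.69 and 2.56 CPM; log2 -0.86 ± 0.20, adjusted p = 0.00082) and Mx (1.39, 0.710 and 1.72 CPM; log2 -2.63 ± 0.23, adjusted p = 5.38e-12) and higher in Md (14.5, 12.2 and 11.4 CPM; log2 1.82 ± 0.17, adjusted p = 2.80e-11) and PA2 (10.7, 13.8 and 10.8 CPM; log2 1.67 ± 0.17, adjusted p = 1.57e-10).

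Foxl2, known for its part in eyelid and ovary development, was high in Mx alone among the subpopulations. At E10.5 it had 10.3 and 7.27 CPM in Mx, against 0.712, 0.752 and 0.977 CPM in FNP, 0.0425, 0.0825 and 0.0531 CPM in Md and no count in PA2, where 0 counts allow up to 0.0453 CPM over the group. Mx lay above all 9 others and was called higher (adjusted p = 1.50e-17). PA2 was called lower (adjusted p = 7.21e-05), at least 55.8-fold below the mean CPM of the other libraries when set against 3 counts over the group. The high level in Mx carries that mean, and the bound does not hold against FNP or Md alone. FNP was called higher than the mean of the other 3 log2 levels (adjusted p = 0.00198), although its mean CPM is below that of the others, since Md and PA2 are near 0. Md was not called against the other 3 (adjusted p = 1), but DESeq2 called it lower (adjusted p = 0.0215), and no fold is given because it depends on the empty PA2 group. At E11.5 Foxl2 had 17.4, 15.4 and 16.4 CPM in Mx, against 1.44, 1.60 and 1.40 CPM in FNP, 0.0283, 0.420 and 0.379 CPM in Md and 0.155, 0.0303 and 0.0964 CPM in PA2 (log2 5.58 ± 0.25, adjusted p = 2.95e-20 in Mx). Mx again stood apart from every other library, FNP came next without overlap, and Md and PA2 overlapped. Md (log2 -2.26 ± 0.45, adjusted p = 0.000409) and PA2 (log2 -4.28 ± 0.47, adjusted p = 2.51e-09) were called lower, and FNP higher on the log2 scale (log2 0.96 ± 0.31, adjusted p = 0.022). The last of these calls was lost without FNP replicate 2 (adjusted p = 0.0795) or replicate 3 (0.0556), or without PA2 replicate 2 (0.0616). At E8.5, Foxl2 was at 3.90, 4.44 and 3.85 CPM, between Mx and FNP.

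Markers of neurons moved with Foxl2 in part. Summed over 8 genes such as Stmn2 and Neurod1, they were at 143 to 166 CPM in Mx at E10.5 and 9.85 to 14.3 CPM in the other 3 subpopulations, with none of the 8 at 0 in Mx and 1 at 0 in FNP. At E11.5 the sum was 54.7 to 64.0 CPM in Mx and as high in FNP, at 55.3 to 69.4 CPM, where Foxl2 was at 1.48 CPM against 16.4 CPM in Mx. In Md and PA2 at E11.5 it was 15.5 to 17.4 and 9.67 to 11.9 CPM. Markers of crest glia and early crest were also highest in Mx at E10.5, at 82.2 to 97.5 CPM, against 7.54 to 28.3 CPM in the other subpopulations. At E11.5 their sum was 20.6 to 28.2 CPM in Mx and 32.6 to 39.7 CPM in FNP. In bulk samples, fewer cells of a type and less RNA per cell cannot be told apart.

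**Figure D2:**
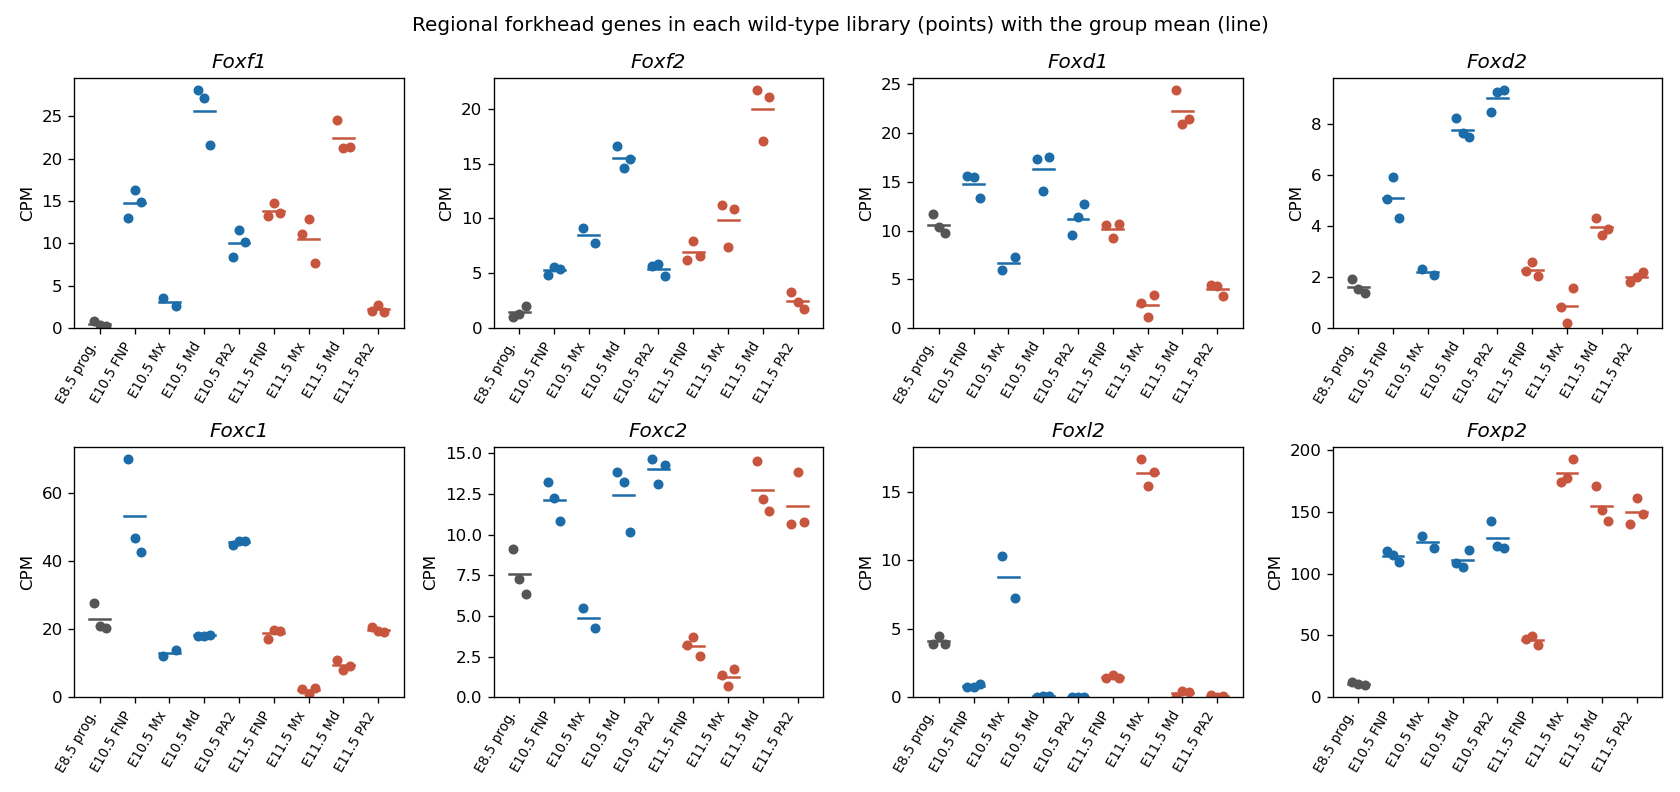
Level (CPM, linear axis from 0) of 8 forkhead genes in each wild-type library, points being libraries and lines group means, by stage and subpopulation. Foxf1, Foxf2 and Foxd1 peak in Md, Foxc1 and Foxc2 are lowest in Mx at E11.5, Foxl2 peaks in Mx, and Foxp2 in FNP at E11.5 lies within 42.1 to 49.5 CPM, below the other E11.5 libraries.

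Foxp factors are transcriptional repressors, of which Foxp2 is known from speech and motor circuits and Foxp1 from heart and lymphocytes. Foxp2 had 47.1, 49.5 and 42.1 CPM in FNP at E11.5, against 139.9 to 193 (median 161) CPM in the other 9 libraries (log2 -1.81 ± 0.11, adjusted p = 4.18e-17), and no overlap. At E10.5 its difference in FNP had not been called (log2 -0.09 ± 0.10, adjusted p = 0.546), with 118, 115 and 109 CPM against 105 to 143 (median 121) CPM. In Mx, Md and PA2 at E11.5, Foxp2 was called higher, with log2 fold changes of 0.83 ± 0.09, 0.52 ± 0.09 and 0.46 ± 0.09. The low FNP level enters each of these reference means, and PA2 lay below every Mx library and overlapped with Md. Foxp1 was highest in PA2 at both stages, at 217, 205 and 204 CPM at E10.5 against 96.3 to 173 (median 150.4) CPM elsewhere (log2 0.65 ± 0.07, adjusted p = 4.35e-10), and 192, 215 and 227 CPM at E11.5 against 83.5 to 181 (median 110.1) CPM (log2 0.84 ± 0.06, adjusted p = 7.42e-14). PA2 did not overlap with the rest at either stage. Foxp1 was lower in Mx at E10.5 (log2 -0.83 ± 0.08, adjusted p = 3.98e-10), and lower in FNP (log2 -0.62 ± 0.07, adjusted p = 2.17e-09) and Mx (log2 -0.56 ± 0.07, adjusted p = 4.51e-08) at E11.5, where these 2 groups overlapped. In Md at E11.5, Foxp1 was higher by 0.35 ± 0.07 on the log2 scale. Foxp4 was lower in Mx at E11.5, with 38.4, 33.2 and 31.3 CPM against 53.5 to 88.3 (median 71.5) CPM elsewhere (log2 -1.02 ± 0.21, adjusted p = 0.00049), and higher in PA2 (log2 0.64 ± 0.19, adjusted p = 0.0134). Foxp3, the regulatory T cell factor, was lower in FNP at E10.5 (log2 -0.32 ± 0.12), a call lost on leaving out any 1 of 8 libraries and with no filter on low counts (adjusted p = 0.0971). Its counts are uncertain, since the gene overlaps Ccdc22 and Ppp1r3f and the libraries are unstranded.

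Foxo1 and Foxo3, effectors of insulin signalling, also varied between subpopulations. Foxo3 had 35.8, 42.0 and 41.8 CPM in FNP and 40.3 and 38.5 CPM in Mx at E10.5, and both were called lower (log2 -0.40 ± 0.07, adjusted p = 1.99e-05 in FNP; log2 -0.43 ± 0.08, adjusted p = 0.000189 in Mx). PA2 (64.2, 61.0 and 67.2 CPM) and Md (61.2, 55.8 and 57.4 CPM) were called higher, by 0.51 ± 0.07 and 0.32 ± 0.07 on the log2 scale. Md and PA2 overlapped with each other and lay above FNP and Mx. Foxo1 was higher in FNP and Md at E10.5, by 0.32 ± 0.09 and 0.36 ± 0.09, and lower in Mx (log2 -0.40 ± 0.11), the last call being lost without Mx replicate 1 (adjusted p = 0.144) or 2 (0.155). At E11.5 it had 58.5, 62.1 and 54.8 CPM in FNP, against 26.3 to 42.8 (median 33.9) CPM elsewhere (log2 0.79 ± 0.09, adjusted p = 1.26e-09), and 26.3, 31.6 and 28.2 CPM in PA2, against 33.5 to 62.1 (median 39.9) CPM elsewhere (log2 -0.58 ± 0.09, adjusted p = 5.84e-06). FNP stood above and PA2 below all other libraries of the stage. Among the broadly expressed classes, Foxn2 was lower in FNP at E10.5 (log2 -0.26 ± 0.09, adjusted p = 0.0289), and Foxk2 lower in PA2 at E11.5 (log2 -0.25 ± 0.08, adjusted p = 0.0244), a call lost without any 1 PA2 library (adjusted p 0.0543 to 0.132) and with no filter on low counts (0.0572). The other members of Foxj, Foxk, Foxm and Foxn of 5 CPM or more were called in no comparison between subpopulations.

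Counting all 33 tested members, 15 were called in FNP at E10.5, beside 27.6% of all genes. Of these, 7 were higher and 8 lower (15.9% and 11.7% of all genes). In Mx 10 were called (7.28% of all genes), with 2 higher and 8 lower (4.37% and 2.91%). In Md 9 were called (6.81%), with 8 higher and 1 lower (3.14% and 3.68%), and in PA2 8, with 6 higher and 2 lower (5.59% and 4.94%). At E11.5, 10 were called in FNP (24.6%), with 6 higher and 4 lower (12.6% and 12% of all genes), and 8 in Mx (11.3%), with 2 higher and 6 lower (5.84% and 5.5%). In Md 9 were called (7.1%), with 8 higher and 1 lower (4.16% and 2.94%), and in PA2 13 (17.7%), with 7 higher and 6 lower (9.41% and 8.27%). The counts hold members of under 1 CPM, of which 3 are given here after their values were seen. These are Foxe3, known from the lens, higher in PA2 at E10.5 (0.543, 0.503 and 0.835 CPM against 0 to 0.318 CPM), Foxo6, higher in PA2 at E11.5 (0.839, 0.455 and 0.418 CPM against 0.0516 to 0.210 CPM), and Foxq1, higher in Md at E11.5 (1.05, 0.659 and 0.812 CPM against 0.0350 to 0.404 CPM).

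Some further regional calls were lost without 1 library. For FNP at E10.5 these were Foxo1, without FNP replicate 3 (adjusted p = 0.0744), and Foxn2, without FNP replicate 1 (0.187) or 3 (0.0805), Mx replicate 2 (0.0773) or Md replicate 3 (0.0529). For Md at E10.5 they were Foxd2, without Md replicate 1 (0.0569), and Foxo1, without Md replicate 2 (0.0971) or 3 (0.0516). For PA2 they were Foxc2 at E10.5, without PA2 replicate 1 (0.0688) or 3 (0.0501), Foxf2 at E10.5, without PA2 replicate 3 (0.0910), and Foxp4 at E11.5, without PA2 replicate 1 (0.0647).

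Hedgehog genes were read beside the family. Of 13 such genes, 12 were tested. In Md at E11.5, 3 were higher and 5 lower, beside 4.16% and 2.94% of all genes, with a median log2 fold change of -0.17 beside 0.00 over all genes. Gli1, Ptch1 and Hhip, all induced by the signal, were the 3 higher, by 0.59 ± 0.14, 0.62 ± 0.14 and 0.66 ± 0.17. In PA2 at E11.5, 1 was higher and 5 lower, beside 9.41% and 8.27% of all genes, with a median of -0.38 beside -0.02. Gli1 averaged 11.6 CPM in PA2 and 30.1 CPM elsewhere (log2 fold change -1.35 ± 0.16, adjusted p = 1.58e-08), and Ptch1 69.1 and 112 CPM (-0.68 ± 0.15). In FNP at E11.5, 6 were higher and 0 lower, beside 12.6% and 12% of all genes (median 0.35 beside 0.03).

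Forkhead genes lie in clusters, and noncoding neighbours were counted separately. Foxf1, Foxc2 and an entry spelled FOXL1, which the rule on names leaves out, lie together on chromosome 8, Foxq1, Foxf2 and Foxc1 on chromosome 13, and Foxd2 and Foxe3 on chromosome 4. The long noncoding RNA Fendrr lies 1354 bases from Foxf1 (chromosome 8, 121084386 to 121088144 on GRCm38), on the opposite strand. Fendrr averaged 21.7 CPM in Md and 8.90 CPM elsewhere at E10.5 (log2 1.85 ± 0.16, adjusted p = 4.59e-12), and was lower in PA2 at E11.5 (log2 -3.26 ± 0.22, adjusted p = 1.01e-15). In both it moved with Foxf1, but in PA2 at E10.5 Fendrr was called lower (log2 -1.09 ± 0.19, adjusted p = 2.97e-05) where Foxf1 was not called. Foxl2os lies 297 bases from Foxl2 (chromosome 9, 98955607 to 98958126) and averaged 55.0 CPM in Mx and 1.56 CPM elsewhere at E11.5 (log2 5.49 ± 0.21, adjusted p = 1.13e-22). Foxd2os, 359 bases from Foxd2 (chromosome 4, 114906280 to 114908898), was higher in PA2 at E10.5 by 1.15 ± 0.14 and in Md at E11.5 by 1.51 ± 0.15. FOXL1, a hedgehog-responsive gene of gut mesenchyme 9048 bases from Foxc2 (chromosome 8, 121127940 to 121130644), had 2.69, 2.25 and 3.19 CPM in Md at E11.5 and 0.166 to 1.54 (median 0.650) CPM elsewhere (log2 2.28 ± 0.25, adjusted p = 4.32e-09). The table also lists a processed pseudogene at the start of FOXL1, so counts of that gene are uncertain. Some members overlap other protein-coding entries, as Foxf1 and Foxc2 do with Gm20388 and Foxp1 does with Gm20696, each on the same strand. Libraries are unstranded, so reads of overlapping transcripts cannot be told apart.

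Among 11335 protein-coding genes, those whose mean log2 levels over the 9 WT groups were most like Foxf1 were Por, Megf6, Rnf216, Prdm4 and Gtf2ird1, with Pearson r of 0.905, 0.899, 0.897, 0.891 and 0.890. For Foxd1 they were Fndc3c1, F2r, Fam165b, Nfe2l1 and Atg7, with r of 0.816, 0.813, 0.812, 0.810 and 0.802. For Foxl2 they were Sh3bgrl2, Akap6, Nell2, Chrna3 and Taf1b, with r of 0.901, 0.890, 0.886, 0.878 and 0.866. These values describe 9 points that share stages and are given with no test.

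Between E8.5 and E10.5 the family changed its makeup. Members known from neural tube, ectoderm and endoderm were near 0 at E10.5, while Foxf1, Foxp2, Foxf2 and Foxd2 were higher. Foxb1, a gene of the neural tube and mammillary body, had 2 counts in the 11 libraries of E10.5 together and 2164 in the 3 of E8.5, where it was at 16.1, 16.3 and 15.7 CPM. The level at E8.5 was 2299 times that at E10.5, with a 95% counting interval of 635.7 to 19000. Foxd4, known from early neural ectoderm, had 2 and 1144 counts (1216 times, 335.7 to 10050), and Foxi2, known from head ectoderm, 6 and 1356 counts. Foxa2 of floor plate and endoderm had 2 and 634 counts (673.6 times, 185.7 to 5575), and Foxa1 3 and 735 (520.6 times, 177.5 to 2530). Foxi3, which in mouse acts in pharyngeal and otic ectoderm, had 2 and 161 counts (171.1 times, 46.6 to 1425), and Foxh1, the Nodal effector, 4 and 250. No E10.5 library reached the E8.5 level of any of these 7 genes. Foxr2 averaged 0.282 ± 0.159 CPM at E10.5 and 3.58 ± 0.872 CPM at E8.5 (SD, n = 11 and 3; log2 -3.82 ± 0.31, adjusted p = 5.08e-14).

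Foxf1 ranged over 2.61 to 28.1 (median 13.01) CPM at E10.5, against 0.873, 0.345 and 0.272 CPM at E8.5 (log2 4.42 ± 0.23, adjusted p = 2.06e-20). Foxp2 ranged over 105 to 143 (median 119.5) CPM, against 12.7, 10.4 and 10.2 CPM (log2 3.44 ± 0.12, adjusted p = 1.02e-25), and Foxf2 over 4.77 to 16.6 (median 5.83) CPM, against 1.04, 1.29 and 2.01 CPM (log2 2.42 ± 0.21, adjusted p = 4.18e-13). None of these overlapped between the stages. Foxd2 (log2 1.72 ± 0.21, adjusted p = 1.71e-09), Foxp4 (log2 1.58 ± 0.22, adjusted p = 2.91e-08) and Foxp1 (log2 1.14 ± 0.07, adjusted p = 1.36e-17) were also higher at E10.5, as were Foxo4, Foxc2 and Foxn3 by 0.73, 0.42 and 0.38 (log2), and Foxq1, at under 1 CPM. The call of Foxc2 was lost without E8.5 replicate 2 (adjusted p = 0.0824) or 3 (0.149). Foxj1, a gene of motile cilia, was lower (log2 -1.26 ± 0.34, adjusted p = 0.00109), though under 1 CPM. It had 0.0651 to 0.479 CPM at E10.5, against 0.291, 0.669 and 0.440 CPM at E8.5, with overlap. Foxo1 was lower too (log2 -0.53 ± 0.09, adjusted p = 8.04e-07). Foxd1 was not called (log2 0.13 ± 0.15, adjusted p = 0.47). Foxl2 was called lower over the mean of the 4 subpopulations (adjusted p = 2.10e-13), yet in Mx it lay above E8.5. In all, 10 members were called higher (32.1% of all genes) and 11 lower (36.3%), so the share of members called was near that of all genes, 68.4%.

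Markers of other cell types differed between the stages. Summed markers of neural tube were 20.7 to 31.8 CPM at E10.5 and 300.1 to 382 CPM at E8.5, those of epithelium 2.96 to 18.6 and 172 to 199 CPM, of endoderm 0.0315 to 0.475 and 21.5 to 25.1 CPM, and of endothelium 3.32 to 8.89 and 151 to 171 CPM. No gene of these lists was at 0 at E8.5, and the endoderm list includes Foxa1 and Foxa2. A change of cell content and a change within crest cells cannot be told apart in this comparison. E8.5 replicate 1, the highest of the 3 in mitochondrial counts, had 17.1 CPM of Foxp4, against 46.7 and 40.7 CPM in the other 2. Without it, 21 members were called, as with it.

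From E10.5 to E11.5, Foxc1, Foxd2, Foxc2 and Foxd1 fell, Foxm1 fell, and Foxo3, Foxj2 and Foxn3 rose. Averaged over the subpopulations, the log2 fold change was -1.58 ± 0.11 for Foxc1 (adjusted p = 6.58e-16), -1.42 ± 0.13 for Foxd2, -1.03 ± 0.12 for Foxc2 and -0.77 ± 0.10 for Foxd1 (adjusted p = 1.83e-08). The subpopulations did not move alike. Foxd1 in Md was at 22.2 ± 1.91 CPM at E11.5 and 16.3 ± 1.94 CPM at E10.5, and Foxc2 in Md at 12.7 ± 1.60 and 12.4 ± 1.99 CPM (SD, n = 3 each), while both were lower at E11.5 in FNP and Mx. That difference between subpopulations was not tested. Foxf1, averaged over the subpopulations, was not called (log2 -0.17 ± 0.10, adjusted p = 0.137). It was called lower without Mx replicate 2 of E10.5 (log2 fold change -0.24, adjusted p = 0.0492). That average covers opposite moves. Foxf1 averaged 10.6 CPM at E11.5 and 3.09 CPM at E10.5 in Mx, and 2.255 and 10.05 CPM in PA2. Neither pair overlapped, and these moves were not tested.

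Foxm1 ranged over 82.3 to 127 (median 95.7) CPM in the 12 WT libraries of E11.5, against 146 to 185 (median 162) CPM in the 11 WT libraries of E10.5 (log2 -0.70 ± 0.06, adjusted p = 8.12e-14), with no overlap in WT. The other 6 libraries of E11.5 lay inside the E10.5 range, with 154, 171 and 165 CPM in Hoxa2TempMut and 165, 152 and 157 CPM in Control. Of 11 mitotic genes known as Foxm1 targets, 1 was higher and 6 lower at E11.5, beside 33.7% and 30.1% of all genes, with a median of -0.17 beside 0.03 over all genes. Nek2 fell by 0.89 ± 0.05 and Plk1 by 0.63 ± 0.12 on the log2 scale, and Cdc25b rose by 0.52 ± 0.06. Foxo3 ranged over 67.5 to 93.2 (median 75.8) CPM at E11.5, against 35.8 to 67.2 (median 55.8) CPM at E10.5 (log2 0.66 ± 0.04, adjusted p = 5.46e-17). Of 8 tested Foxo target genes, 5 were higher and 0 lower at E11.5 (median 0.35 beside 0.03), among them the stress sensors Sesn3 (0.57 ± 0.07) and Sesn1 (0.52 ± 0.05). At E10.5 against E8.5, where Foxo3 was not called, 5 of the 8 were higher and 2 lower, beside 32.1% and 36.3% of all genes. Foxj2 rose by 0.72 ± 0.07, Foxn3 by 0.48 ± 0.05 and Foxj3 by 0.34 ± 0.04, and Foxp4 fell (log2 -0.83 ± 0.12, adjusted p = 2.44e-07). Foxl2 was called higher (adjusted p = 0.000329), with the fold left out because PA2 had no count at E10.5. Called higher were 6 members (33.7% of all genes) and lower 11 (30.1%), so the share of members called was below the 63.8% of all genes. Stage cannot be told apart from anything else that differed between the collections.

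**Figure D3:**
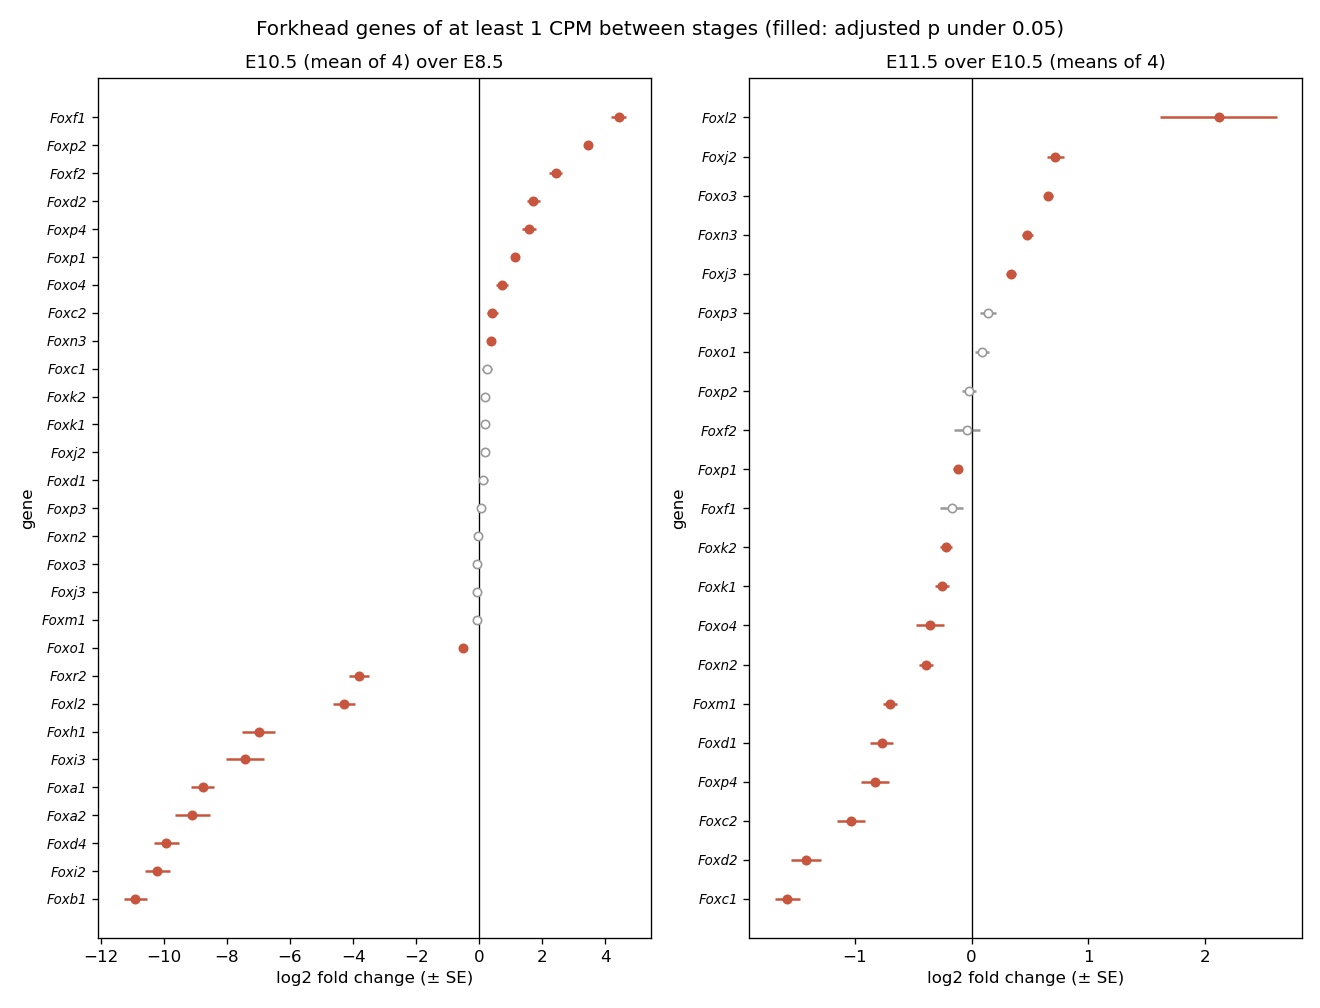
Log2 fold change (± SE) of forkhead genes with a mean of at least 1 CPM in either stage, E10.5 over E8.5 at the left and E11.5 over E10.5 at the right, filled where the adjusted p is under 0.05. Folds of genes with few counts at E10.5 (Foxb1, Foxd4, Foxi2, Foxa1, Foxa2, Foxi3 and Foxh1) and of Foxl2 depend on the prior count and give no bound. Foxf1 and Foxp2 lead the rises to E10.5, and Foxc1, Foxd2 and Foxc2 the falls to E11.5.

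Ezh2 is the enzyme of Polycomb repressive complex 2, which marks silent developmental genes by methylating histone H3. In Ezh2cKO, Foxa1, near 0 in WT, was higher in all 4 subpopulations, Foxl2 was higher outside Mx, Foxd1 and Foxf1 were higher in Mx and PA2, and Foxo1 in Md was the single call in the lower direction. Foxa1 had 0.499, 0.867 and 0.723 CPM in FNP, 0.660, 0.700 and 0.301 CPM in Mx, 0.767, 0.619 and 0.564 CPM in Md and 0.834, 0.419 and 0.435 CPM in PA2 of Ezh2cKO. Its 187 counts in all Ezh2cKO libraries stand against 3 in all WT libraries of E10.5 (58.8 times, 19.8 to 287.8; adjusted p = 1.69e-13), and it was called in each subpopulation. The 12 Ezh2cKO libraries did not overlap with the 11 of WT. Foxa2 had 20 counts in Mx and 38 in PA2, against 0 and 1 in WT, and was called in both (adjusted p = 0.0184 and 0.00629). In Mx the call was lost without WT replicate 1 (adjusted p = 0.156) or 2 (0.149) or Ezh2cKO replicate 1 (0.0503), and in PA2 without Ezh2cKO replicate 2 (0.0544). These levels stayed below those of E8.5, where Foxa1 averaged 5.37 ± 1.35 CPM and Foxa2 4.58 ± 2.08 CPM (SD, n = 3). Other early genes were not called in any subpopulation, Foxb1 and Foxd4 staying at or under 0.152 CPM in every Ezh2cKO library.

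Foxl2 had 1.996, 1.66 and 2.168 CPM in Ezh2cKO FNP, against 0.712, 0.752 and 0.977 CPM in WT (log2 1.24 ± 0.35, adjusted p = 0.023), and 0.361, 0.619 and 0.410 CPM in Md, against 0.0425, 0.0825 and 0.0531 CPM in WT (log2 2.89 ± 0.79, adjusted p = 0.013). In PA2 it had 0.379, 0.495 and 0.290 CPM, with 31 counts against 0 (at least 8.57-fold higher, adjusted p = 0.00123). None of these groups overlapped with its WT. In Mx, where WT Foxl2 is high, it had 7.38, 10.3 and 10.0 CPM in Ezh2cKO and 10.3 and 7.27 CPM in WT, which overlapped (log2 0.07 ± 0.30, adjusted p = 0.937). The F test of the difference between the 4 effects was called (adjusted p = 0.00936), but not without WT Mx replicate 1 (adjusted p = 0.0573). Foxl2os rose beside it, by 2.02 ± 0.30 in FNP, 3.31 ± 0.46 in Md and 3.36 ± 0.63 in PA2. Calls of Foxl2 were lost without 1 library in FNP (WT replicates 1 and 2, Ezh2cKO replicates 1 and 3; adjusted p 0.0697 to 0.0937) and in Md (WT replicates 1 and 3, Ezh2cKO replicate 2; 0.0506 to 0.0801).

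Foxd1 had 17.8, 18.2 and 18.8 CPM in Ezh2cKO Mx, against 5.98 and 7.30 CPM in WT (log2 1.46 ± 0.22, adjusted p = 8.27e-06), and 22.4, 24.1 and 20.1 CPM in PA2, against 9.55, 11.4 and 12.7 CPM in WT (log2 0.99 ± 0.19, adjusted p = 0.000295). In Md it had 21.6, 22.6 and 24.98 CPM, against 17.3, 14.03 and 17.5 CPM (log2 0.50 ± 0.19, adjusted p = 0.0928), and in FNP 16.7, 18.4 and 16.9 CPM, against 15.5, 15.5 and 13.4 CPM (log2 0.23 ± 0.19, adjusted p = 0.592). The groups overlapped in none of the 4, but only Mx and PA2, where WT is lower, were called. In Md the call was made in a fit of Ezh2cKO and WT Md alone (adjusted p = 0.00182) and with no filter on low counts (adjusted p = 0.0381). The effects differed (F test, adjusted p = 0.0358), a call lost on leaving out any 1 of 17 of the 23 libraries (adjusted p 0.0503 to 0.276) and with RLE size factors (0.0542). In Ezh2cKO the 12 libraries of the 4 subpopulations ranged over 16.7 to 24.98 (median 19.5) CPM, against 5.98 to 17.5 (median 13.4) CPM in the 11 of WT. Foxf1 rose in Mx, to 7.30, 7.08 and 4.82 CPM in Ezh2cKO against 3.56 and 2.61 CPM in WT (log2 1.04 ± 0.23, adjusted p = 0.00199), and in PA2, to 15.6, 16.1 and 16.1 CPM against 8.37, 11.6 and 10.2 CPM (log2 0.66 ± 0.19, adjusted p = 0.0161). It was not called in FNP (log2 0.00 ± 0.18, adjusted p = 1) or Md (log2 0.05 ± 0.18, adjusted p = 0.942), where libraries overlapped, and the F test of the difference was not called (adjusted p = 0.0811). The PA2 call of Foxf1 was lost without WT replicate 1 (adjusted p = 0.123) or replicate 3 (0.0516), or Ezh2cKO replicate 2 (0.0527).

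**Figure D4:**
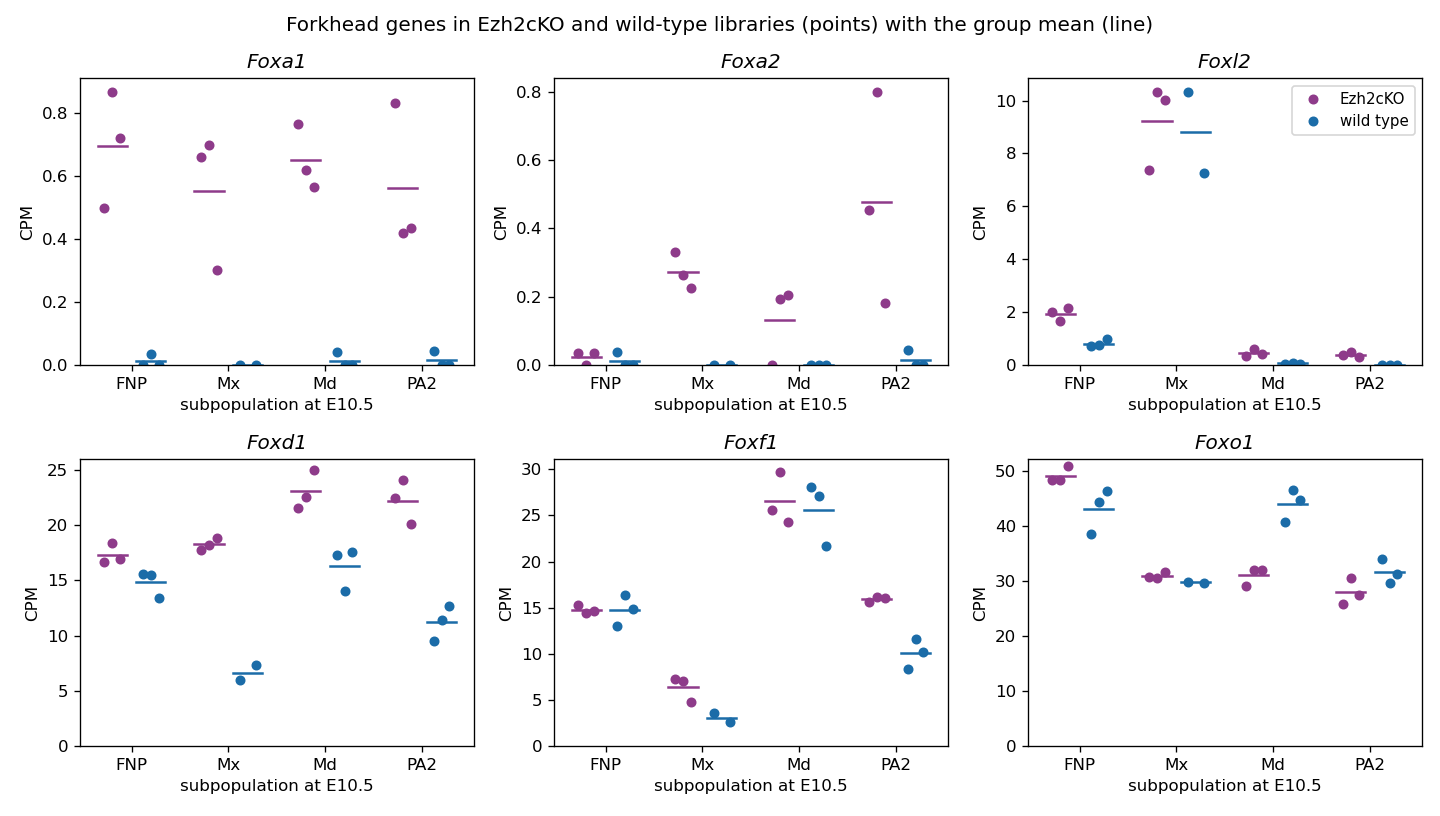
Level (CPM, linear axis from 0) of 6 forkhead genes at E10.5 in each Ezh2cKO library (left of each pair) and wild-type library (right), by subpopulation, with group means as lines. Foxa1 is above wild type in all 4 subpopulations, Foxl2 outside Mx, Foxo1 is below wild type in Md, and Foxd1 in Ezh2cKO lies within 16.7 to 24.98 CPM throughout.

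In Mx, 10 members were called higher and 0 lower, beside 6.85% and 3.41% of all genes (10.3% in either direction). They were Foxa1, Foxa2, Foxd1, Foxf1, Foxq1 (log2 fold change 1.40), Foxd2 (log2 0.93 ± 0.28, adjusted p = 0.0219), Foxc1 (23.7, 25.4 and 24.98 CPM in Ezh2cKO and 12.2 and 13.9 CPM in WT; log2 0.92 ± 0.23, adjusted p = 0.00668), Foxc2 (0.86), Foxp2 (0.62) and Foxp1 (0.31). With 2 WT libraries the count rests on each of them, being 6 without WT replicate 1 and 2 without WT replicate 2, and 6 without Ezh2cKO replicate 1. Foxc1, Foxc2, Foxd2 and Foxp1 were not called without either WT library (adjusted p 0.0650 to 0.322), and Foxf1 (0.119) and Foxp2 (0.0741) not without WT replicate 2. Foxq1 was called neither without WT replicate 2 (0.497) nor without any Ezh2cKO replicate (0.0594 to 0.105), in a fit of the 2 groups alone (0.0515) or with no filter on low counts (0.0663). Without Ezh2cKO replicate 1, Foxc2 (0.0851) and Foxp1 (0.101) were not called, and without replicate 2, Foxd2 (0.130) and Foxp1 (0.0920). Foxa1 and Foxd1 kept their calls in Mx without each of the 5 libraries. Elsewhere 3 were higher and 0 lower in FNP (4.97% and 1.83% of all genes, 6.8% in either direction), including Foxo3 at 0.29 ± 0.08, which was not called in a fit of the 2 groups alone (adjusted p = 0.0623), with no filter on low counts (0.0828), or without WT replicate 1 (0.196) or Ezh2cKO replicate 2 (0.1105) or 3 (0.0560). In Md 2 were higher and 1 lower (6.69% and 2.18%, 8.87% in either direction), and in PA2 5 and 0 (6.64% and 2.53%, 9.17% in either direction). The FNP count was 1 without WT replicate 1 or Ezh2cKO replicate 3, the PA2 count 3 without Ezh2cKO replicate 2, and the Md count 5 in a fit of Ezh2cKO and WT Md alone. Foxo1 in Md had 29.1, 32.1 and 32.0 CPM in Ezh2cKO, against 40.8, 46.5 and 44.7 CPM in WT (log2 -0.50 ± 0.11, adjusted p = 0.00192), and its effect differed between subpopulations (adjusted p = 0.0391), a call lost on leaving out any 1 of 13 of the 23 libraries (0.05 to 0.130). Members whose effect differed numbered 3 (1.63% of all genes). That count was 1 without FNP WT replicate 1 or 2, Mx WT replicate 1, Md WT replicate 3, any Ezh2cKO replicate of FNP, or replicate 1 or 2 of Ezh2cKO Mx or Md. Averaged over the 4 subpopulations, 12 members were higher and 0 lower, beside 16.1% and 14.7% of all genes (30.8% in either direction), among them Foxd1 (log2 0.79 ± 0.10, adjusted p = 1.94e-08), Foxf1 (log2 0.44 ± 0.10, adjusted p = 0.000499) and Foxf2 (log2 0.44 ± 0.11, adjusted p = 0.00196).

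Other markers moved with these results. Summed markers of endoderm, a list that holds Foxa1 and Foxa2, were 1.46 to 2.96 CPM in Ezh2cKO and 0.0315 to 0.475 CPM in WT, and Foxa1, Foxa2 and the homeobox gene Hhex were those of its 7 genes called within a subpopulation. In WT 2 to 4 of the 7 were at 0 in a subpopulation, and in Ezh2cKO none. The epithelial sum of 10 genes was 9.195 to 10.4 CPM in Ezh2cKO and 2.96 to 4.49 CPM in WT for Mx, 9.95 to 13.04 and 4.37 to 4.58 CPM for Md, and 12.7 to 14.3 and 4.32 to 5.37 CPM for PA2, without overlap, while in FNP it was 14.8 to 16.8 and 8.76 to 18.6 CPM. Grhl2 was called higher in all 4, and Epcam and Krt18 in Mx, Md and PA2. The neural tube sum of 8 genes was higher without overlap in all 4, at 37.99 to 40.4 CPM in Ezh2cKO and 28.2 to 31.8 CPM in WT for FNP, 26.5 to 33.1 and 24.5 to 24.7 CPM for Mx, 28.3 to 30.6 and 20.8 to 24.1 CPM for Md, and 28.4 to 35.9 and 20.7 to 23.9 CPM for PA2. Nkx6-1 was called higher in each. Neuron markers summed to 93.6 to 257 CPM in Ezh2cKO Mx and 143 to 166 CPM in WT Mx, and to 18.2 to 24.9 CPM in the other Ezh2cKO groups and 9.85 to 14.3 CPM in WT. Markers of crest glia and early crest summed to 34.9 to 56.3 CPM in Ezh2cKO Mx and 82.2 to 97.5 CPM in WT Mx. In PA2 they were higher in Ezh2cKO without overlap, and in FNP and Md they overlapped. Markers of cranial mesoderm and muscle were lower in Ezh2cKO FNP, at 4.37 to 5.60 against 9.77 to 9.97 CPM, and overlapped in Mx. They were higher in Md, at 1.90 to 2.84 against 0.371 to 0.619 CPM, and in PA2, at 1.74 to 2.09 against 0.541 to 0.679 CPM. At E10.5 the crest mesenchyme sum was 1331 to 2207 CPM in Ezh2cKO and 1375 to 2070 CPM in WT. Mitochondrial counts were 24.9 to 28.3% in Ezh2cKO and 21.8 to 22.6% in WT for Mx, 25.5 to 31.0% and 19.9 to 24.0% for Md, and 26.7 to 29.9% and 22.2 to 23.6% for PA2, without overlap, and 29.3 to 32.4% and 28.2 to 33.6% for FNP. The part of other cells and of the mitochondrial share in the result was not tested.

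Polycomb domains are known to favour CpG-rich promoters. The 250 bases before the start of some members that rose in Ezh2cKO are shown, with every CG in capitals, from RefSeq on GRCm38.p6. Those of Foxa1 (chr12:57546112-57546361, minus strand, 21 CG), Foxl2 (chr9:98955357-98955606, plus strand, 22 CG) and Foxd1 (chr13:98353995-98354244, plus strand, 12 CG) read 5′ to 3′ as follows.
Foxa1: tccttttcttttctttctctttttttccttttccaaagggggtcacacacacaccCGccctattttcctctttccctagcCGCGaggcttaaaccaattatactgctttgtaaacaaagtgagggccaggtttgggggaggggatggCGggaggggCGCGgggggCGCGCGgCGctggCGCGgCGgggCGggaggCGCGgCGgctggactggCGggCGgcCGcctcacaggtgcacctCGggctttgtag
Foxl2: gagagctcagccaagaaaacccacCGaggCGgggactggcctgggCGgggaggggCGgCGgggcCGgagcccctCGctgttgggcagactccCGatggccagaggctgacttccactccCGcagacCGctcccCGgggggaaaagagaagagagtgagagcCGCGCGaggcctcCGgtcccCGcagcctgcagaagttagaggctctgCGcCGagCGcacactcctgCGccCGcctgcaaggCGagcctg
Foxd1: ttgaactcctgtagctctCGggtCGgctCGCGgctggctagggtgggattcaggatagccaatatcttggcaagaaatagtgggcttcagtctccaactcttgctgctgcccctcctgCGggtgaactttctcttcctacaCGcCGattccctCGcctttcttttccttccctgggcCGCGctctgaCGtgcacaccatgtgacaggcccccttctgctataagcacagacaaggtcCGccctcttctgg
Promoters were matched for 27 of the 41 members, giving 32 windows with a median of 15.5 CG, beside 6.0 over all 32851 windows of the table. At least 20 CG were found in a window of 13 members, and in 17.9% of all windows. Foxk2, which was called in no subpopulation of Ezh2cKO, had 48 CG. Whether the CG count goes with the change in Ezh2cKO was not tested. Searched on both strands, the GLI string GACCACCCA was in 0 of the 32 windows (0.23% of all windows), and CCACCC, which it contains, in 14 (28.08%). The forkhead strings TGTTTAC and TGTTTG, which share their first letters, were in 1 (3.17%) and 7 windows (5255 of all 32851). These are letters in windows and not sites of binding.

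HoxA2OE sets Md with added Hoxa2, the gene that gives the second arch its identity, against WT Md. Foxc1, Foxf2, Foxn2 and Foxp2 were higher and Foxp4 was lower. Foxc1 had 121, 57.6 and 64.6 CPM in HoxA2OE Md, against 18.1, 18.03 and 18.4 CPM in WT Md (log2 2.15 ± 0.21, adjusted p = 5.92e-11). The groups did not overlap, and WT PA2, which carries Hoxa2, had 44.8, 46.0 and 46.0 CPM. Foxp1, also higher in WT PA2, had 206, 191 and 193 CPM, against 151, 145 and 149.9 CPM (log2 0.40 ± 0.08, adjusted p = 7.94e-05). Foxf2, lower in WT PA2, was higher in HoxA2OE, at 40.9, 22.9 and 22.1 CPM against 16.6, 14.6 and 15.4 CPM (log2 0.88 ± 0.21, adjusted p = 0.000426). Foxf1 had 34.1, 34.1 and 40.7 CPM, against 28.1, 27.1 and 21.6 CPM (log2 0.50 ± 0.18, adjusted p = 0.0147), a call lost without WT replicate 3 (adjusted p = 0.0898), while its neighbour Fendrr was lower (log2 -0.74 ± 0.19, adjusted p = 0.00137). Foxd1 (24.8, 12.1 and 15.3 CPM against 17.3, 14.03 and 17.5 CPM; log2 0.09 ± 0.19, adjusted p = 0.713) and Foxl2 (5 counts in all in HoxA2OE and 4 in WT, adjusted p = 0.892) were not called.

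Foxp4 fell to 16.5, 47.4 and 50.6 CPM in HoxA2OE, against 119.5, 131 and 79.4 CPM in WT (log2 -1.52 ± 0.25, adjusted p = 2.33e-06). Foxo3 (log2 0.56 ± 0.08, adjusted p = 3.78e-07), Foxn2 (log2 0.80 ± 0.11, adjusted p = 9.79e-08), Foxp2 (log2 0.68 ± 0.12, adjusted p = 7.27e-06) and Foxc2 (log2 0.77 ± 0.21, adjusted p = 0.00183) were higher, and Foxk1 (log2 -0.55 ± 0.12, adjusted p = 0.000149) and Foxo1 (log2 -0.52 ± 0.11, adjusted p = 0.000137) lower. Called in all were 9 higher and 6 lower, beside 27.1% and 27.8% of all genes, a smaller share than the 54.8% of all genes over both directions. Of 11 Foxm1 target genes, 5 were higher and 1 lower (median 0.22 beside -0.07), while Foxm1 itself was not called (log2 -0.11 ± 0.11, adjusted p = 0.408). Of 12 hedgehog genes, 3 were higher and 4 lower, with Gli1 at 13.2 CPM in HoxA2OE and 32.4 CPM in WT (-1.28 ± 0.19).

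Marker levels differed in HoxA2OE. Erythroid markers summed to 10.47 to 13.5 CPM in HoxA2OE and 219 to 284 CPM in WT Md, endothelial ones to 12.1 to 12.6 and 5.31 to 6.44 CPM, neural tube ones to 29.7 to 40.9 and 20.8 to 24.1 CPM, epithelial ones to 5.91 to 7.81 and 4.37 to 4.58 CPM, leukocyte ones to 5.29 to 7.82 and 9.02 to 11.1 CPM, and crest mesenchyme markers to 2399 to 3202 and 1826 to 1879 CPM, none of which overlapped. Of the leukocyte genes, Cd68 alone was called, at 2.95 CPM in HoxA2OE and 5.48 CPM in WT Md. Mitochondrial counts were 28.5 to 45.9% in HoxA2OE and 19.9 to 24.0% in WT Md. Their part in the result was not tested. Without HoxA2OE replicate 1, the library high in mitochondrial counts, 14 members were called, Foxc1 changed by 1.73 (adjusted p = 3.07e-10) and Foxp4 by -1.18 (adjusted p = 1.89e-05), and Foxc2 (0.31, adjusted p = 0.164) and Foxj3 (0.16, adjusted p = 0.0917) were not called. In a fit of HoxA2OE and WT Md alone, 9 members were called, 7 higher and 2 lower, and Foxc2 (adjusted p = 0.101), Foxj3 (0.1405), Foxk1 (0.0705) and Foxp3 (0.0774) were among those not called.

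In PA2 at E11.5, 0 of the 33 tested members were called between Hoxa2TempMut and Control by edgeR, 4 at an unadjusted p under 0.05 and 0 with DESeq2. Of all genes, 0.258% were called higher and 0.365% lower, 0.623% in all. Foxd1 had 7.95, 10.52 and 10.2 CPM, against 6.58, 6.03 and 7.08 CPM, with no overlap and no call (log2 0.54 ± 0.19, adjusted p = 0.37). Foxf1 (log2 0.13 ± 0.21, adjusted p = 1) and Foxl2 (log2 0.26 ± 0.53, adjusted p = 1) were not called, with overlapping libraries. Summed markers of cranial mesoderm and muscle were 17.2 to 21.5 CPM in Hoxa2TempMut and 24.8 to 44.4 CPM in Control, and those of epithelium 9.36 to 11.1 and 13.2 to 16.9 CPM. As Hoxa2 itself was not called lower, this comparison holds for libraries labelled Hoxa2TempMut.

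Control differed from WT PA2 of the same day in 7 members, all higher, beside 10.1% higher and 12% lower of all genes (22.1% in all). Foxm1 had 165, 152 and 157 CPM in Control, against 104, 93.3 and 91.4 CPM in WT (log2 0.72 ± 0.11, adjusted p = 6.72e-06), and Foxp2 234, 233 and 259 CPM, against 139.9, 161 and 148 CPM (log2 0.69 ± 0.12, adjusted p = 2.91e-05). Neither overlapped, and Foxm1 in Control lay in the range of the E10.5 libraries. Foxf2 (log2 1.02 ± 0.24, adjusted p = 0.00135), Foxd1 (log2 0.71 ± 0.20, adjusted p = 0.00962) and Foxo1 (log2 0.43 ± 0.11, adjusted p = 0.00381) were higher without overlap, and Foxf1 (log2 0.63 ± 0.22, adjusted p = 0.0328) with overlap. Foxn2 was called (log2 0.30 ± 0.11, adjusted p = 0.0417), but not with DESeq2 (adjusted p = 0.0576), with RLE size factors (0.0638), with no filter on low counts (0.122), or without any 1 of the 6 libraries (0.0660 to 0.150). The call of Foxf1 was lost without WT replicate 1 or 3 or Control replicate 1 or 3 (adjusted p 0.0894 to 0.167), and that of Foxd1 without WT replicate 3 (0.0660). Foxl2 was not called (log2 1.36 ± 0.69, adjusted p = 0.16). Summed markers of cranial mesoderm and muscle were 24.8 to 44.4 CPM in Control and 3.15 to 9.51 CPM in WT PA2, those of epithelium 13.2 to 16.9 and 7.13 to 10.53 CPM, of leukocytes 13.4 to 17.5 and 7.46 to 9.13 CPM, of neurons 16.2 to 17.3 and 9.67 to 11.9 CPM, of endothelium 6.04 to 8.39 and 14.2 to 16.1 CPM, and of crest mesenchyme 2670 to 3000.0 and 3112 to 3306 CPM. None of these overlapped. Of the leukocyte genes, Cd68, a gene of macrophages, was alone in being called, at 10.3 CPM in Control and 3.69 CPM in WT (log2 1.48 ± 0.17). Csf1r, at 3.80 and 3.96 CPM, was not called, so the leukocyte sum rests largely on Cd68. Mitochondrial counts were 19.6 to 20.1% in Control and 15.4 to 17.97% in WT. Their part in the result was not tested.

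**Figure D5:**
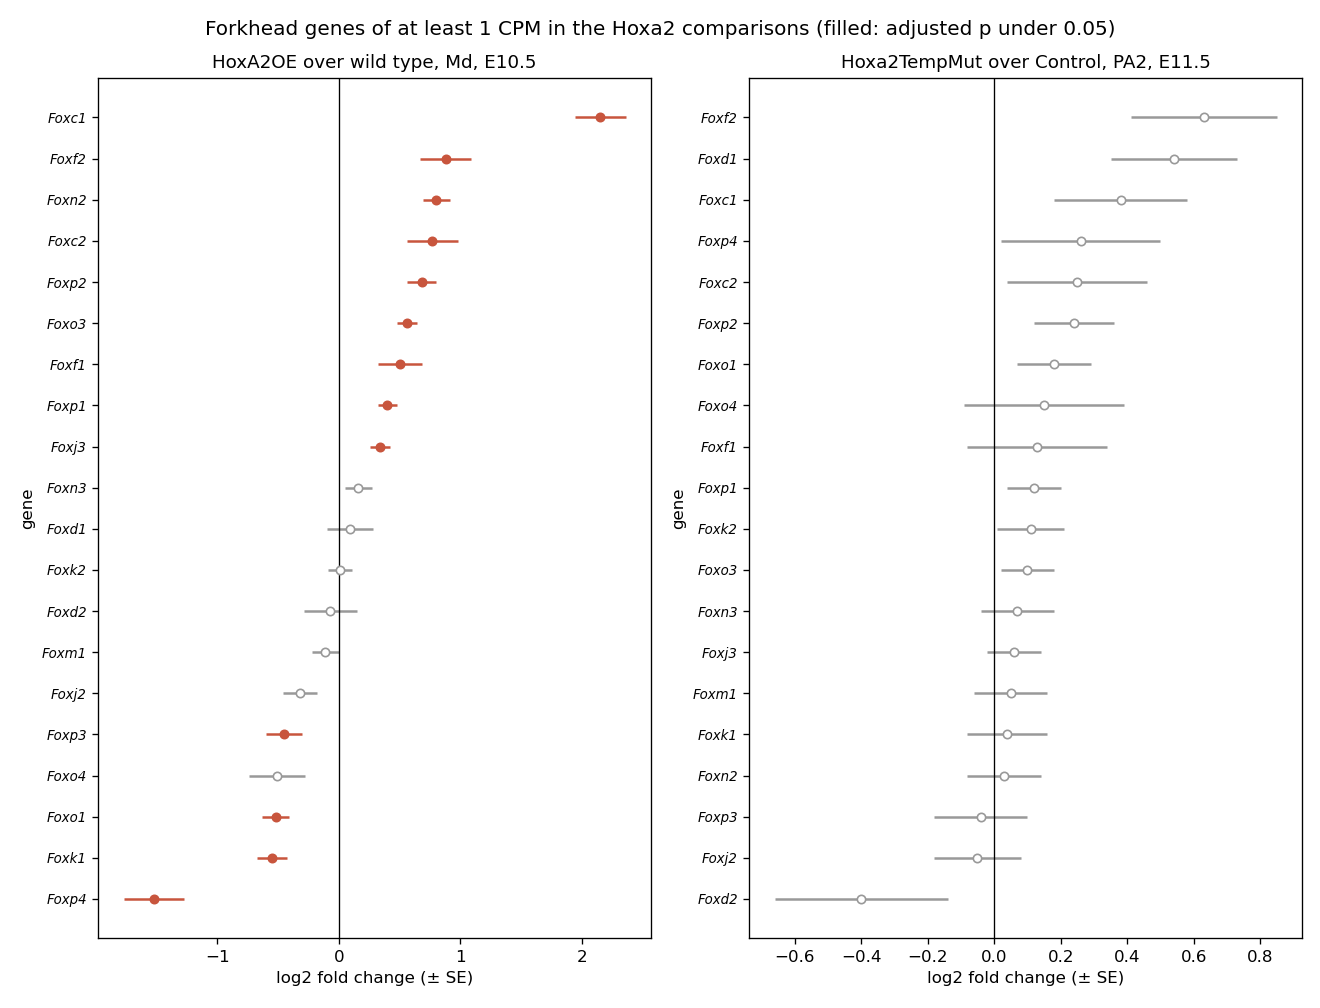
Log2 fold change (± SE) of forkhead genes with a mean of at least 1 CPM on either side, HoxA2OE over wild-type Md at E10.5 (left) and Hoxa2TempMut over Control PA2 at E11.5 (right), filled where the adjusted p is under 0.05. Foxc1 at 2.15 and Foxp4 at -1.52 are the extremes at the left, and no point is filled at the right.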

How the data were processed

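The deposited table holds raw read counts per gene, with whole numbers in every library, and the unit was read from the values. Per the labels' protocols, RNA was purified with PicoPure, unstranded total RNA libraries were made with ScriptSeq v2, and 50-base single-end reads were made on a HiSeq with 3 libraries per pool. Per the submitters' processing notes, bcl2fastq 2.17 and the GRCm38 (mm10) build were used. The aligner and the counting tool are not given in the sources, so reads shared by paralogs or overlapping genes may be counted in either. Of the columns, 22 repeat another column's name with identical values and were used once.

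Library totals were scaled by TMM in edgeR 4.0.16 (R 4.3.3). Genes were kept by filterByExpr with a minimum count of 10 and a minimum total of 15. The quasi-likelihood test was fitted over all 47 libraries, with 16 group means and 31 residual degrees of freedom, and p-values were adjusted by Benjamini-Hochberg within each comparison. Subpopulations were compared with the mean log2 level of the other 3, and stages by the mean of their 4 subpopulations. A difference between the 4 Ezh2cKO effects was tested by an F test of 3 contrasts. Counting intervals are exact binomial at 95%, floors are 3 counts over a group, and both cover counting error only.

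In each comparison, up to 8 called members with a mean of at least 1 CPM were named by size of change, and Foxf1, Foxd1 and Foxl2 were always described. Further called members were described outside this rule, with their values known. Among them are Foxa1, Foxa2 and Foxq1 in Ezh2cKO, each under 1 CPM, and several members between stages. Likeness used log2(CPM + 0.5), and neighbours lay within 10 kb. Members and gene lists were chosen with earlier results of these data known. Some genes of the family and of the hedgehog list are not reported here and enter no count of members or list genes. Alternatives were RLE size factors, DESeq2 1.42.0, no filter on low counts, a fit of the compared groups alone, the replicate number as a block, and each library left out in turn.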

Additional observations from a re-analysis of the deposited data

Results flagged for a closer look

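In 3 members the change in Ezh2cKO differed between the 4 subpopulations, by edgeR's F test of 3 contrasts. These were Foxl2 (adjusted p = 0.00936), which was higher outside Mx, Foxd1 (adjusted p = 0.0358), with its changes called in Mx and PA2, and Foxo1 (adjusted p = 0.0391), called lower in Md alone. Leaving out 1 of the 23 libraries ended the call for 1 library in Foxl2, 17 in Foxd1 and 13 in Foxo1. No cause was tested.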

How the results depend on the processing

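Counts of members called were within 1.5 times of those reported under RLE size factors and the replicate block in all 19 comparisons. The members whose Ezh2cKO effect differed between subpopulations numbered 7 in a fit of the compared groups alone, 6 with DESeq2 and 5 with no filter on low counts, against 3 as reported. In the fit of the groups alone, Ezh2cKO Md had 5 against 3, and HoxA2OE had 9 against 15. The cause was not tested.

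Leaving out 1 library at a time gave 10 to 15 members called for FNP at E10.5, 8 to 10 for Mx, 8 to 9 for Md and 6 to 9 for PA2. At E11.5 it gave 9 to 11, 8 to 11, 9 to 10 and 10 to 13. For E10.5 against E8.5 it gave 21 to 24, and for E11.5 against E10.5 16 to 19. For Ezh2cKO it gave 1 to 3 in FNP, 2 to 9 in Mx, 2 to 3 in Md, 3 to 5 in PA2, 10 to 13 over the 4 and 1 to 3 for the difference between effects. It gave 14 to 17 for HoxA2OE, 0 each time for Hoxa2TempMut and 5 to 6 for Control against WT.

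Directions turned for values near 0 that were not called. Foxf1 in Ezh2cKO FNP (0.00, log2) was at 0.02 with RLE size factors, no filter and DESeq2, 0.03 in the fit of the groups alone, and -0.08 to 0.08 with 1 library left out. Foxl2 in Ezh2cKO Mx went to -0.03 under the replicate block and -0.16 to 0.35 with 1 library left out. The same omissions gave -0.19 to 0.05 for Foxf1 and -0.16 to 0.04 for Foxd1 in PA2 at E10.5, -0.27 to 0.39 for Foxd1 and -1.55 to 0.15 for Foxl2 in HoxA2OE, -0.06 to 0.12 for Foxf1 in Ezh2cKO Md, and -0.60 to 1.01 for Foxl2 and -0.03 to 0.27 for Foxf1 in Hoxa2TempMut.

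Deviations of same-numbered libraries of different groups had correlations of -0.316 to 0.612, with a median of 0.01. These values pool pairs from all groups, so they cannot decide whether libraries of the same collection are paired. With the replicate number as a block, 16 members were called in HoxA2OE, 8 in Control, 22 for E10.5 against E8.5, 18 for E11.5 against E10.5, 9 in Mx at E11.5 and 9 in PA2 at E10.5, each 1 more than reported, and the other 13 counts did not move. For genes with few counts, such as Foxa1 and Foxl2 outside Mx, depth limits how far levels can be compared.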

Other observations

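Foxo6, a brain-enriched Foxo factor, was higher in Mx at E10.5 (log2 1.64 ± 0.47, adjusted p = 0.0215), with 0.585 and 0.598 CPM in Mx and 0.0395 to 0.543 (median 0.165) CPM in the other 9 libraries. The libraries did not overlap, and the call was lost without Mx replicate 1 (adjusted p = 0.191) or 2 (0.1805). At E11.5 it was not called in Mx (log2 -0.57 ± 0.53, adjusted p = 0.615), and PA2 was higher (log2 2.06 ± 0.41, adjusted p = 0.000192). Foxr2 was higher in PA2 at E11.5 (log2 1.54 ± 0.51, adjusted p = 0.029), again without overlap, at 0.342, 0.303 and 0.321 CPM in PA2 and 0 to 0.298 (median 0.113) CPM elsewhere, a call lost without any 1 PA2 library (adjusted p 0.0689 to 0.0972) or without Mx replicate 1 (0.0544). These members were chosen after their values were seen.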
